A study of Homo sapiens with 3 samples.

Results

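MATR3 (matrin 3) is a nuclear RNA-binding protein whose sites were mapped by PAR-CLIP in HEK293 cells, a human embryonic kidney line, and the clusters described here lie on the mitochondrial chromosome. They are all entries with chromosome M in the cluster tables of the 3 replicates, assigned by position and strand to the 13 protein-coding, 2 rRNA and 22 tRNA genes of that chromosome. The 3 tables held 26, 24 and 29 mitochondrial clusters, 79 of 388807 clusters in all. The libraries were biological replicates of 1 group, made with an antibody against MATR3 from cells of the genotype HEK293-WT with no treatment. There was no control library, so levels are given between replicates, strands and genes, and beside nuclear clusters of the same libraries.

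In PAR-CLIP, cells take up a photoreactive uridine analogue, and a crosslinked uridine is read as C in place of T, called a T-to-C change. The human mitochondrial genome is transcribed from both strands into long precursors, which are cut, mostly at tRNAs, into rRNAs, mRNAs and tRNAs. The plus strand of the reference carries both rRNAs and all mRNAs but MT-ND6. The minus strand carries MT-ND6 and several tRNAs, and most of its other transcripts are removed by the mitochondrial degradosome. The mRNAs encode core subunits of respiratory complexes I, III and IV and of the ATP synthase, complex V.

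Sequences are shown where they carry a result, in lower case from hg38, 5′ to 3′, with ATCTT in capitals. ATCTT is the DNA form of AUCUU, a motif known for MATR3. The stretches present in a cluster of all 3 replicates are shown first, because they are the most repeated positions. They lie in the coding sequences of MT-ND1 and MT-CO1 and, on the minus strand, opposite MT-TI. An MT-ND4 locus was also found in all replicates and is too long to print.
MT-ND1 chrM:3841-3943, plus: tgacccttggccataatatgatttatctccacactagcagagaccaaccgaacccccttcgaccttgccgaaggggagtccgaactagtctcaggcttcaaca
MT-CO1 chrM:5988-6058, plus: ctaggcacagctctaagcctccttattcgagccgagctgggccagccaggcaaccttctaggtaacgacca
MT-CO1 chrM:6899-6973, plus: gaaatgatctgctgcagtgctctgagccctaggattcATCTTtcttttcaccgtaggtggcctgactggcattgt
opposite MT-TI chrM:4284-4328, minus: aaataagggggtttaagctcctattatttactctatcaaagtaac

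The clusters with the highest and lowest T-to-C share among plus-strand loci listed more than once are shown next, followed by the single cluster of MT-RNR1.
MT-ND2 chrM:5107-5178, plus, highest: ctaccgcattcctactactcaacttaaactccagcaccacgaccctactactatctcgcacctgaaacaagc
MT-CO1 chrM:7105-7187, plus, lowest: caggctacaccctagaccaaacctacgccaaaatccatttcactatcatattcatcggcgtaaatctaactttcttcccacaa
MT-RNR1 chrM:1250-1305, plus: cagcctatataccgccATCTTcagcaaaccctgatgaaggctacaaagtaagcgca

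Mitochondrial clusters were few and deep. They held 15943, 17046 and 24192 reads in replicates 1, 2 and 3, of 1649124, 1506682 and 1532602 reads in all clusters, or 1.23% ± 0.317 (SD, n = 3). The median mitochondrial cluster had 147, 122.5 and 214 reads, against 9, 8 and 9 for nuclear clusters. The cluster with most reads was mitochondrial in each replicate, with 5420 reads on MT-ND5 in replicate 1 and 8483 and 9106 reads on MT-CO1 in replicates 2 and 3. The deepest nuclear cluster had 491, 1032 and 546 reads. Reads per distinct read were 2.43 ± 0.305 in mitochondrial and 2.79 ± 0.343 in nuclear clusters (SD, n = 3). In nuclear clusters of over 100 reads they were 2.52 ± 0.307 (SD, n = 3). The part of copied sequences in the depth was not tested.

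Of the 54 plus-strand and 25 minus-strand clusters, the plus strand held nearly all reads. It had 15461, 16641 and 22554 reads in 16, 17 and 21 clusters, which covered 16.1%, 13.6% and 19.0% of the strand. The minus strand had 482, 405 and 1638 reads in 10, 7 and 8 clusters.

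**Figure D1:**
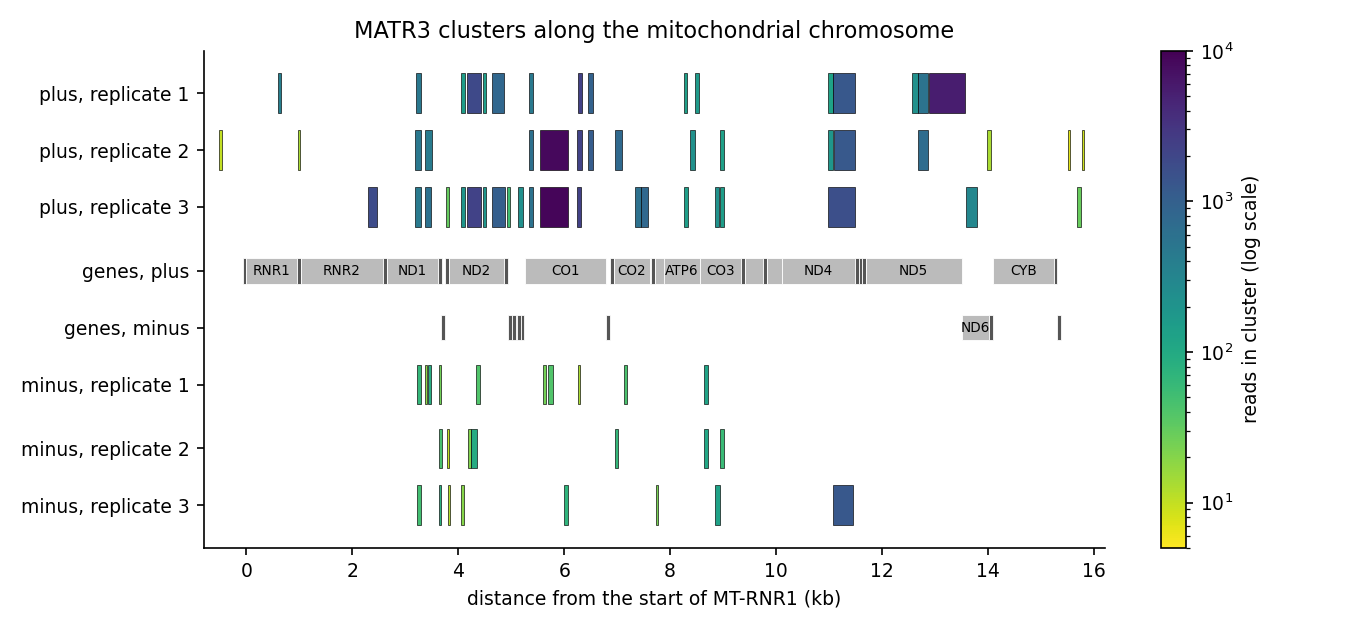
Deposited MATR3 clusters along the mitochondrial chromosome, by strand and replicate, with distance from the start of MT-RNR1 in kb on the x axis and reads per cluster as colour on a log scale. Grey boxes are protein-coding and rRNA genes and dark boxes tRNA genes on the strand named at the left. Plus-strand clusters lay on MT-ND1, MT-CO1, MT-ATP6 and MT-ND4 in all 3 replicates, and none lay on MT-CYB.

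Of the 13 mRNA and 2 rRNA genes, 10 carried an own-strand cluster in at least 1 replicate. MT-CO1, MT-ND4, MT-ND1 and MT-ATP6 carried one in all 3. MT-ND2, MT-ND5, MT-CO2 and MT-CO3 did so in 2 replicates, and each rRNA in 1. No cluster was listed on MT-ND3, MT-ND4L, MT-ND6, MT-CYB or MT-ATP8. An unlisted gene is not an unbound one: the tables list only clusters with at least 4 reads, 4 T-to-C reads, 2 conversion locations and 20 nt, and with a conversion specificity of about 0.602 or more. That specificity is a log10 ratio: T-to-C reads are divided by the reads with any other mismatch, plus 1. Of the 79 mitochondrial clusters, 40 (50.6%) lay between this limit and 0.699 (log10 of 5). Nuclear clusters lay there in 12.4%, 14.7% and 11.6% of cases, and nuclear clusters of over 100 reads in 59.3%, 63.2% and 60.8%. Whether a locus missing from 1 replicate had reads just below the limit was not tested.

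Levels of genes are given as reads in a gene's clusters per kb of gene and per 1000000 reads in all clusters of the replicate, here called normalised reads. Library depth is not known here, and there was no RNA level to divide by. A gene with no listed cluster in a replicate enters its mean and SD as 0, though its reads there are not known.

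The 2 rRNAs, which form the small and large mitochondrial ribosomal subunits, carried 1 cluster each. On MT-RNR1 (12S rRNA, chrM:648-1601) a cluster of 56 nt with 385 reads was listed in replicate 1. On MT-RNR2 (16S rRNA, chrM:1671-3229) a cluster of 157 nt with 1739 reads was listed in replicate 3. Neither was found in another replicate, and replicate 2 had none. The rRNAs took 2.49%, 0% and 7.71% of plus-strand reads, 3.40% ± 3.93 (SD, n = 3). Per kb, the log2 ratio of rRNA genes to plus-strand mRNA genes was -3.18 in replicate 1 and -1.42 in replicate 3, a mean of -2.30 ± 1.24 (SD, n = 2). The planned test over 3 replicates could not be made, because replicate 2 listed no rRNA cluster. Over the other two the exact sign-flip p was 0.5, the smallest possible.

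Among the 7 subunit genes of complex I, the NADH dehydrogenase, 4 carried clusters. MT-ND1 (chrM:3307-4262), a subunit of the membrane arm, had 483, 908 and 1035 reads. Its level was 306, 630 and 706 normalised reads, 548 ± 212 (SD, n = 3), and lowest in replicate 1. The first of its loci, chrM:3832-3950, held 483, 473 and 455 reads, and the deposited position of the conversion mode was 3882 in all 3 replicates. The other, chrM:4020-4142, held 435 and 580 reads in replicates 2 and 3 and was not listed in replicate 1. The difference between replicates in MT-ND1 thus came from the second locus, while the first was nearly level.

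MT-ND2 (chrM:4470-5511), another membrane-arm subunit, had 2988, 0 and 3653 reads in 4, 0 and 4 clusters. The same 4 loci were listed in replicates 1 and 3. They held 149 and 190 reads (chrM:4704-4767), 1892 and 2251 reads (chrM:4817-5080), 145 and 189 reads (chrM:5107-5178) and 802 and 1023 reads (chrM:5283-5525). All were higher in replicate 3, and no cluster was listed on the gene in replicate 2. The cluster at the gene's end ran a few bases into MT-TW, and the files name it after that tRNA, though 226 and 229 nt of it lay in MT-ND2.

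MT-ND4 (chrM:10760-12137), a further membrane-arm subunit, varied least relative to its mean among the genes listed in all replicates, with 1398, 1413 and 1605 reads. Its level was 615, 681 and 760 normalised reads, 685 ± 72.5 (SD, n = 3). All its reads fell in the last part of the gene, at chrM:11621-12142, as 2 clusters in replicates 1 and 2 and 1 joined cluster in replicate 3. The clusters covered 36.1%, 36.5% and 37.2% of the gene. In replicates 2 and 3 the files name the long cluster after MT-TH, the tRNA that follows, though 405 and 513 nt lay in MT-ND4. Taken by deposited name, MT-ND4 drops out of the genes found in all replicates and 3 remain.

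MT-ND5 (chrM:12337-14148), also in the membrane arm, had 6198, 700 and 0 reads, so the replicates lay far apart. Of the reads in replicate 1, 5420 lay in a single cluster of 686 nt at chrM:13530-14215, of which 619 nt lay in MT-ND5 and 67 nt ran on opposite MT-ND6. No cluster overlapped it in the other replicates. The neighbouring locus, chrM:13324-13520, held 559 and 700 reads in replicates 1 and 2, and chrM:13217-13318 held 219 reads in replicate 1. MT-ND3 and MT-ND4L, which also belong to the membrane arm, had none.

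MT-CYB (chrM:14747-15887), the cytochrome b of complex III, had no cluster in any replicate. It is longer than 5 of the 8 mRNA genes that did have clusters. Clusters on a nuclear copy, MTCYBP18, matched parts of MT-CYB at all but 1 or 2 bases, with 14 reads in replicate 1 and 6 in replicate 3.

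All 3 complex IV genes, which encode the core of cytochrome c oxidase, carried clusters. MT-CO1 (chrM:5904-7445), the catalytic subunit, had the highest mean level, with 3700, 12449 and 11985 reads. Its level was 1455, 5358 and 5071 normalised reads, 3962 ± 2176 (SD, n = 3), with replicate 1 well below the other two. Most of this difference lay in 1 locus. At chrM:6188-6725 replicates 2 and 3 had 8483 and 9106 reads in 1 cluster, and replicate 1 listed none. The loci on both sides of it were listed in all 3 replicates. At chrM:5984-6062 there were 469, 617 and 564 reads, the highest 1.32 times the lowest. At chrM:6897-6982 the replicates were nearly level, with 2284, 2259 and 2315 reads. The last of its loci, chrM:7105-7187, held 947 and 1090 reads in replicates 1 and 2, with the conversion mode at 7135 in both.

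MT-CO2 (chrM:7586-8269), which carries the site that takes electrons from cytochrome c, had 0, 759 and 1392 reads. Those of replicate 2 lay at chrM:7611-7743 and those of replicate 3 at chrM:7982-8095 and chrM:8101-8235, so both replicates had clusters in the gene and no locus in common. MT-CO3 (chrM:9207-9990), the third core subunit, had 0, 137 and 366 reads. Its locus at chrM:9590-9666 held 137 and 152 reads in replicates 2 and 3, and that at chrM:9491-9576 held 214 reads in replicate 3.

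Of the 2 ATP synthase genes, MT-ATP6 (chrM:8527-9207), the subunit beside the proton path, had 309, 223 and 145 reads. Its level was 275, 217 and 139 normalised reads, 210 ± 68.4 (SD, n = 3). MTATP6P1, a nuclear copy that matches part of this gene at all but 1 base, held 269 and 235 reads in replicates 2 and 3. That is more than MT-ATP6 held in those replicates. How reads were placed between gene and copy is not known, and its part in this level was not tested. Replicates 1 and 3 shared a locus at chrM:8901-8976 with 143 and 145 reads, and the cluster of replicate 2 lay elsewhere, at chrM:9021-9114. A further cluster at chrM:9125-9193 held 166 reads in replicate 1. MT-ATP8 (chrM:8366-8572), which overlaps the start of MT-ATP6, had none.

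**Figure D2:**
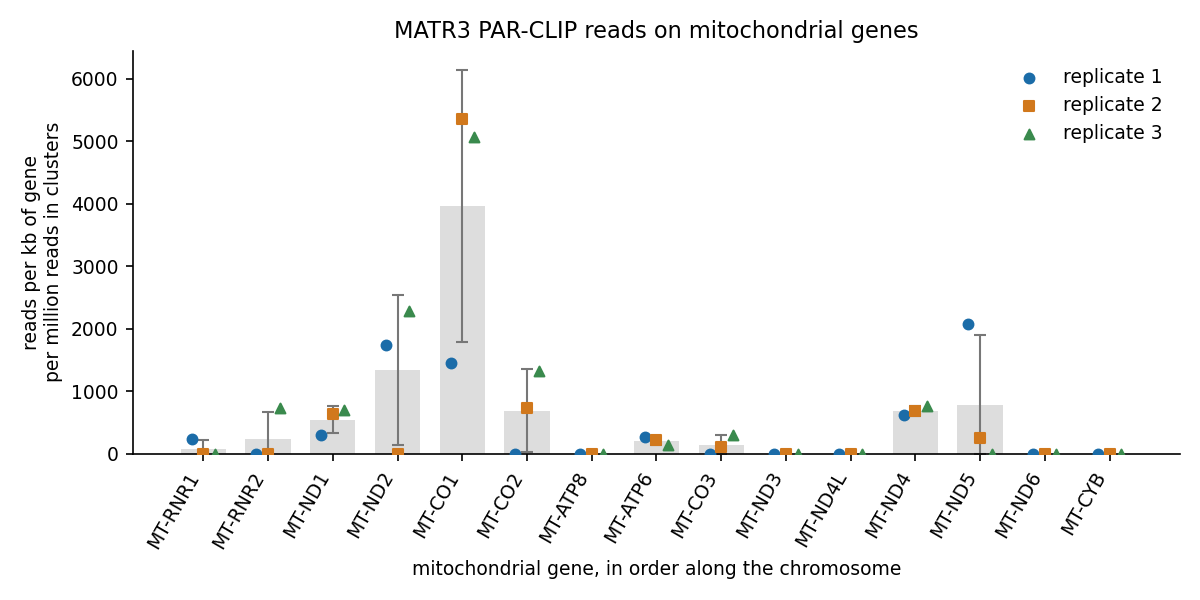
Reads in MATR3 clusters per kb of gene and per 1000000 reads in clusters for the 13 protein-coding and 2 rRNA genes, in order along the chromosome. Points are the 3 replicates, bars their mean and whiskers the SD. MT-CO1 had the highest mean, 3962, the replicates of MT-ND4 lay between 615 and 760, and 5 genes had no cluster.

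In order of mean level, MT-CO1 (3962) was followed by MT-ND2 (1342), MT-ND5 (777), MT-CO2 (688), MT-ND4 (685), MT-ND1 (548), MT-RNR2 (243), MT-ATP6 (210), MT-CO3 (140) and MT-RNR1 (81.6). The replicates of neighbours overlapped at every step of this order. MT-CO1 ranged from 1455 to 5358 and MT-ND2 from 0 to 2288. MT-ND2, MT-ND5, MT-CO2 and MT-CO3 all had a replicate at 0, so their places rest on the others. MT-RNR1 and MT-RNR2 had a listed cluster in 1 replicate each, so their places rest on that replicate. Among the genes with a cluster in all replicates, MT-ATP6 (139 to 275) lay below both MT-ND4 (615 to 760) and MT-ND1 (306 to 706), and those lay below MT-CO1, without overlap.

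By complex, the split of mitochondrial reads turned over between replicates. Complex I genes took 69.4%, 17.7% and 26.0%, and complex IV genes 23.2%, 78.3% and 56.8%. Complex I led in replicate 1 and complex IV in replicates 2 and 3. The MT-ND5 cluster of replicate 1 and the MT-CO1 cluster absent from it were the largest terms. Complex V took 1.94%, 1.31% and 0.599%.

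A few clusters lay outside these genes. Of the tRNAs, MT-TV had 13 reads in replicate 2, MT-TM 30 and MT-TW 52 in replicate 3, and MT-TQ, on the minus strand, 45 in replicate 2. The MT-TW cluster had 21 of its 58 nt on that gene. The non-coding control region had clusters of 10, 7 and 9 reads in replicate 2 and of 29 in replicate 3. Plus-strand clusters of 227 reads opposite MT-TY (chrM:5785-5876) and 296 reads opposite MT-ND6 (chrM:14240-14441) were listed in replicate 3. A further one of 13 reads opposite MT-ND6 was listed in replicate 2.

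The share of clusters that recurred was higher on the mitochondrial chromosome than elsewhere in each replicate, though the sign-flip test over 3 replicates cannot call it. A cluster counted as recurring when a same-strand cluster overlapped it by at least 1 nt in both other replicates. This held for 6 of 26, 6 of 24 and 5 of 29 mitochondrial clusters, 21.8% ± 4.04 (SD, n = 3), against 2.41%, 2.54% and 2.52% of nuclear clusters. The difference was 19.3 percentage points ± 4.05, with the same sign in all 3 replicates. The exact two-sided sign-flip p was 0.25, the smallest possible, and 0.5 after adjustment over 4 tests. A locus shared by all replicates counts in each of them, so the 3 values are not independent. Their SD and common sign therefore do not measure replication. Plus-strand clusters covered 16.1%, 13.6% and 19.0% of their strand, and the part of this density in the overlaps was not tested. Depth also moved with the difference in recurrence. Among clusters of over 100 reads, 29.4%, 38.5% and 20.0% of mitochondrial and 8.65%, 24.0% and 8.08% of nuclear ones recurred. These were set against clusters of any depth.

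The plus-strand clusters formed 34 separate loci, of which 20 were listed in 1 replicate, 10 in 2 and 4 in 3. The 4 loci found in all replicates held 26.8% ± 4.32 of plus-strand reads, the 10 found in 2 held 51.9% ± 19.1 and the 20 single ones 21.3% ± 17.2 (SD, n = 3). Of the 26 loci with a mean of over 100 reads, 12 (46.2%) were listed once, against 470 of 610 nuclear loci of that depth (77.0%). The density of clusters was not matched in this comparison. Where a plus-strand locus was listed more than once its reads were close. The highest over the lowest replicate was a median of 1.17 over 14 loci, with a range of 1.01 to 1.33. For the 140 nuclear loci with a mean of over 100 reads that were listed more than once the median was 2.06, with a range of 1.02 to 58.5. The plus-strand loci were thus listed at counts within a ratio of 1.33 or not at all. The 5 minus-strand loci listed more than once, which were shallower, had a median of 1.30 and a range of 1.14 to 3.19. Nuclear clusters of over 100 reads had a median length of 236.5, 273 and 236 nt against 84, 108.5 and 109 on the plus strand. They were also shallower, with a median of 129, 128 and 131.5 reads against 476, 658.5 and 572. Cluster length and depth thus moved with the difference between plus-strand and nuclear ratios, and their part was not tested. Without replicate 1, 2 or 3 the number of genes found in all that remained was 6, 5 and 5, in place of 4.

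**Figure D3:**
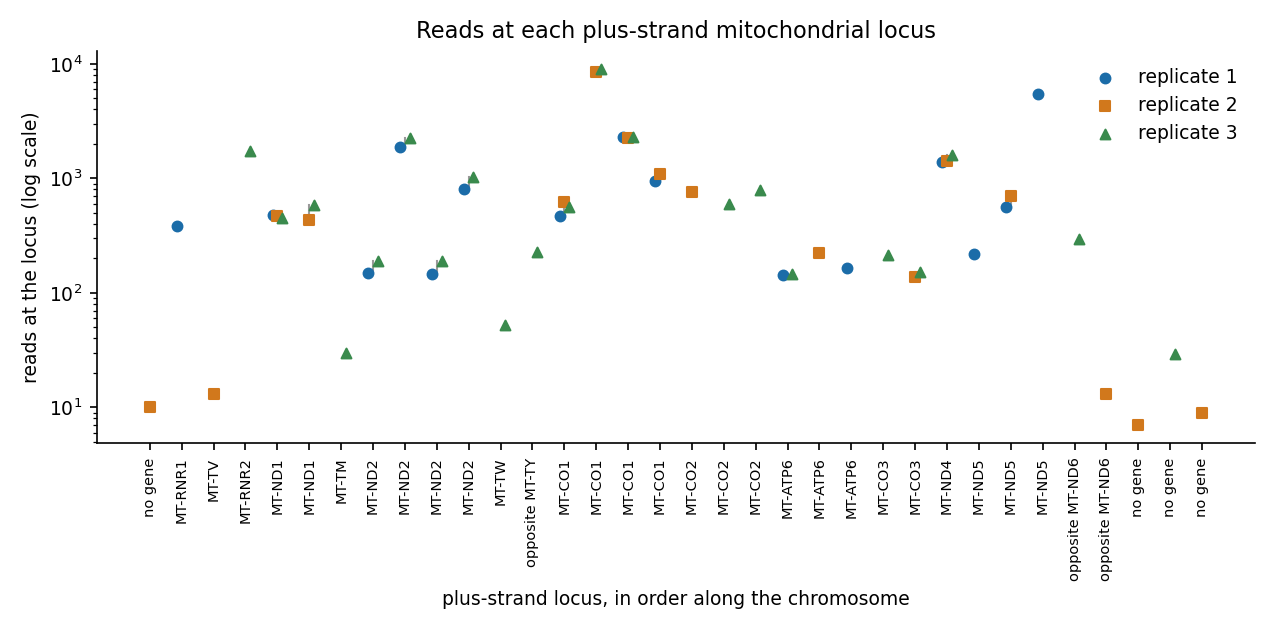
Reads at each of the 34 plus-strand loci in order along the chromosome, on a log scale, with 1 point for each replicate that listed the locus, named by its gene or by the gene opposite. Points of a locus listed in 2 or 3 replicates lie within 1.33 of each other as a ratio, and 20 loci have a single point.

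T-to-C changes were common in these clusters and less so than in nuclear ones. The share of reads with a T-to-C change was 63.0%, 60.3% and 63.1% in mitochondrial clusters, 87.0%, 85.8% and 87.0% in nuclear clusters and 72.7%, 71.6% and 71.3% in nuclear clusters of over 100 reads. Shallow clusters need at least 4 T-to-C reads to be listed, so the deep clusters are the closer match in depth. Depth was still not matched. Among clusters of over 100 reads, the median was 129, 128 and 131.5 reads in nuclear and 469, 617 and 572 in mitochondrial ones. Reads without any mismatch were 22.8%, 26.5% and 23.9% of mitochondrial reads, against 13.4%, 13.9% and 14.8% in nuclear clusters of over 100 reads. Per T position, conversion was 7.92%, 8.18% and 9.05% on the plus strand and 9.94%, 10.8% and 10.5% in those nuclear clusters. Each of these 3 measures put the mitochondrial clusters on the side of less conversion in every replicate; these differences were not tested.

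Among the genes found in all replicates, MT-ND1 had the highest T-to-C share, 73.5%, 71.9% and 70.3%, and 16.1%, 12.6% and 12.6% per T. MT-CO1 had 61.3%, 59.5% and 63.7%, MT-ND4 had 63.7%, 59.9% and 61.1%, and MT-ATP6 had 64.7%, 58.3% and 59.3%. MT-ND1 was thus above MT-CO1, MT-ND4 and MT-ATP6 in every replicate, and the ranges of those genes overlapped. MT-ND2 had 68.8% and 66.5% in replicates 1 and 3.

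The T-to-C share of a plus-strand locus listed more than once moved by a median of 4.01 percentage points between replicates, at most 12.3. The means of these loci ran from 52.0% to 80.3%. The end points were the MT-ND2 locus at chrM:5107-5178, with 80.7% and 79.9%, and the MT-CO1 locus at chrM:7105-7187, with 53.3% and 50.7%. The MT-ND2 sequence printed above has 20.8% T and the MT-CO1 sequence 25.3%. They were picked as end points of 14 loci, and a relation of T content to T-to-C share was not tested.

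The rRNA clusters had 61.0% (MT-RNR1) and 55.5% (MT-RNR2) of reads with T-to-C, so rRNA less mRNA was -2.43 percentage points in replicate 1 and -8.85 in replicate 3. The mean was -5.64 ± 4.54 (SD, n = 2; exact sign-flip p = 0.5, the smallest possible). Per T position the difference was 4.28 in replicate 1, where the sign turned, and -0.55 in replicate 3, where it did not. The rRNAs thus held no one place above or below the mRNAs.

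**Figure D4:**
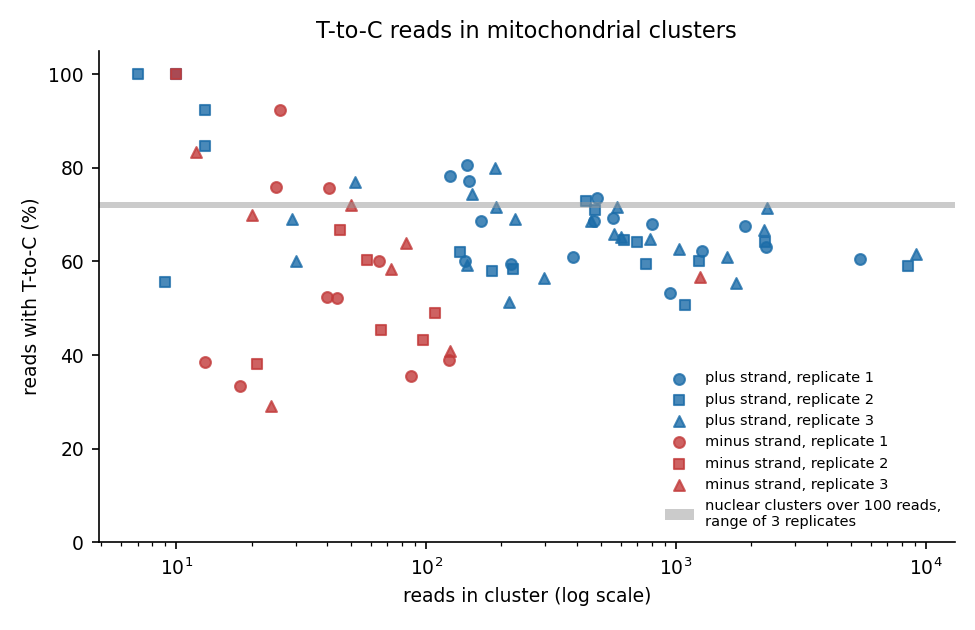
Share of reads with a T-to-C change against reads per cluster (log scale) for the 79 mitochondrial clusters, by strand (colour) and replicate (marker). The grey band is the range over replicates of the share in nuclear clusters of over 100 reads, 71.3% to 72.7%. Most plus-strand clusters of over 100 reads lie below it, and minus-strand clusters spread from 29.2% to 100%.

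The minus strand held 3.02%, 2.38% and 6.77% of mitochondrial reads, 4.06% ± 2.37 (SD, n = 3). No cluster lay on MT-ND6, its only mRNA, and the single cluster assigned to a tRNA of that strand had 13 of its 58 nt on MT-TQ and most of the rest opposite MT-TI. All 25 lay wholly or partly opposite a plus-strand gene. The largest was at chrM:11728-12089, opposite MT-ND4, with 1252 reads in replicate 3 alone, 56.6% of them with T-to-C. Its specificity of 0.603 was at the limit of the tables. It held most of the 1638 minus-strand reads of replicate 3, and without it the strand's share there was 1.68% and the mean 2.36%.

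The other minus-strand clusters of over 100 reads lay opposite MT-CO3. That at chrM:9287-9367 held 123 and 108 reads in replicates 1 and 2, with 39.0% and 49.1% T-to-C, and that at chrM:9486-9586 held 125 reads in replicate 3. The minus-strand locus found in all replicates, chrM:4278-4341, lay opposite MT-TI and reached MT-TQ, with 26, 45 and 83 reads. The remaining minus-strand clusters held 10 to 97 reads. Of 19 minus-strand loci, 14 were listed in 1 replicate, 4 in 2 and 1 in 3, so 5 of 19 were listed more than once against 14 of 34 on the plus strand. Depth was lower too: the median minus-strand cluster had 40.5, 58 and 61 reads and the median plus-strand cluster 476, 435 and 455.

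The T-to-C share was lower on the minus strand in each replicate, a difference that the sign-flip test over 3 replicates cannot call. It was 51.2%, 51.4% and 56.3%, against 63.4%, 60.5% and 63.6% on the plus strand. The difference was 12.2, 9.14 and 7.35 percentage points, 9.55 ± 2.43 (SD, n = 3; exact two-sided sign-flip p = 0.25, the smallest possible; adjusted 0.5 over 4 tests). Reads with no mismatch were 43.8%, 40.0% and 31.4% on the minus strand and 22.2%, 26.1% and 23.4% on the plus strand. Without the cluster opposite MT-ND4 the difference in T-to-C share was 9.92.

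Minus-strand clusters faced a plus-strand cluster of the same replicate in 3 of 10, 2 of 7 and 6 of 8 cases, 44.5% ± 26.4 (SD, n = 3). Those facing clusters held 24.7%, 30.6% and 93.5% of minus-strand reads, the last mainly the cluster opposite MT-ND4, where the plus strand also had 1605 reads. A cluster counted as facing from 1 nt of overlap. By nucleotides, 32.2%, 25.3% and 83.6% of the minus-strand cluster length faced a plus-strand cluster. The plus-strand clusters covered 16.1%, 13.6% and 19.0% of the chromosome. The source of minus-strand reads was not tested.

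ATCTT occurs 22 times on the plus strand of the mitochondrial chromosome and 10 times on the minus strand, each strand read in its own direction, with no overlap between copies. Plus-strand clusters held 5, 5 and 7 of the 22 copies, 22.7%, 22.7% and 31.8%, while covering 16.1%, 13.6% and 19.0% of the strand. A copy lay in 4 of 16, 4 of 17 and 5 of 21 plus-strand clusters. That is 24.1% ± 0.781 of clusters, against 16.8% ± 1.71 of all windows of the same lengths on that strand (SD, n = 3). Minus-strand clusters held none of the 10 copies, where 3.48%, 3.80% and 5.62% of windows of their lengths would hold one. Among the printed sequences the copy in MT-CO1 at chrM:6899-6973 lay in a cluster of every replicate, and MT-ND1 at chrM:3841-3943 had none. These are counts of a few clusters, and no test was made. In base content, plus-strand clusters (29.1% A, 33.8% C, 12.2% G, 25.0% T) were close to the strand itself (30.9%, 31.3%, 13.1% and 24.7%).

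Nuclear chromosomes hold many old copies of mitochondrial DNA, which bears on where short reads align. Of the mitochondrial chromosome, 65.6% lay in exact runs of at least 30 nt that also occur elsewhere in hg38. In the median mitochondrial cluster such runs covered 95.4%, 92.3% and 90.4%. No mitochondrial cluster occurred whole elsewhere, and no nuclear cluster occurred whole on the mitochondrial chromosome. Nuclear clusters named after mitochondrial pseudogenes numbered 4, 6 and 6, with 57, 534 and 324 reads, or 0.358%, 3.13% and 1.34% of the mitochondrial reads. Each differed from the mitochondrial chromosome at 1 or 2 bases. The deepest lay on MTATP6P1 on chromosome 1, with 269 reads in replicate 2 and 235 in replicate 3, and matched a stretch of MT-ATP6. How reads with several matches were placed is not given in the sources used here, and their part in these counts was not tested.

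The nuclear genes whose proteins make and process mitochondrial RNA were looked at as a list of 30. A cluster in all 3 replicates was found on 25 of them (83.3%), against 40.9% of 20007 protein-coding genes. Gene length and expression were not matched. LRPPRC, which stabilises mitochondrial mRNAs with SLIRP, had most reads, 984, 847 and 1573. NSUN4, an rRNA methyltransferase, had 401, 220 and 273. PNPT1 and SUPV3L1, the nuclease and the helicase of the degradosome, had 229, 152 and 159 and 130, 188 and 180. TFB2M, a transcription factor of the mitochondrial polymerase, had 230, 108 and 165. POLRMT, that polymerase, had 12, 17 and 9 and SLIRP 45, 19 and 5. The list was chosen with results of these data known.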

How the data were processed

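PAR-CLIP libraries from 3 biological replicates were used, with 1 deposited table of clusters each, called per replicate. Per the labels, the build is hg38, and all mitochondrial cluster sequences equalled it. The aligner and cluster caller are not given in the sources used here. Read, distinct-read and conversion-event counts are whole numbers as deposited and were not normalised by the authors as far as the values show. The deposited T-to-C value is a fraction of reads, and log10 is the scale of the conversion specificity, as deposited. The deposited mode score was not used. Fraction times reads was within 0.01 of a whole number in 99.5%, 99.3% and 99.4% of clusters, and the log10 ratio given for the specificity held within 0.01 in 98.9%, 98.7% and 98.8%.

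Clusters were assigned to the GENCODE release 44 gene with the largest overlap on their strand. Conversion shares were summed over reads. For strand, rRNA and recurrence differences, 4 exact sign-flip tests (two-sided) were run over replicates, with Benjamini-Hochberg adjustment. Exact 30-nt matches were searched in hg38. Python 3.11.15, pandas 2.3.3 and numpy 2.4.6 were used, and overlap calls, gene assignment and the sign-flip test were tested on simulated data. All mRNA and rRNA genes were named, tRNAs where a cluster had its largest overlap with a gene of its strand on them, and clusters that led a gene in reads, recurred in all replicates or had over 100 reads on the minus strand. Others given by position were chosen after their values were seen. Of the nuclear list, only genes with a cluster in all replicates are named. Members and lists were chosen with earlier results of these data known. Reads carry no molecular identifiers, so counts can include copies of one molecule.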

Additional observations from a re-analysis of the deposited data

How the results depend on the processing

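Recomputing 10 results under 75 alternatives left 69 within the spread between replicates or on the same side of their test. The count of 69 says little about stability. With a smallest p of 0.25, no tested result could change side by its sign-flip test, whatever its size. The recurrence difference of 30.2 percentage points without replicate 2 was among the 69. The number of genes found in all replicates has no spread or test, and some alternatives removed no cluster that mattered to a result. With clusters of at least 10 reads the mitochondrial share of reads was 1.76%. Recurrence was 36.4% to 42.0% when 1 replicate was left out, where only 1 other replicate has to hold the cluster, and 29.3% among clusters of over 100 reads, a choice made after seeing the data. The mean difference in conversion between rRNAs and mRNAs reversed to 1.87 percentage points per T position, with the sign turned in replicate 1 alone. The cause was not tested. Leaving out 1 replicate gave minus-strand shares of 2.70% to 4.90%, rRNA shares of 1.25% to 5.10% and facing shares of 29.3% to 52.5%. The rRNA share was lowest without replicate 3 and the minus-strand share too. No mitochondrial cluster occurred whole elsewhere in hg38, so leaving such clusters out removed nothing and says nothing about stability. With 3 replicates the exact sign-flip test could not reach 0.05. There was no second group of samples to compare with. Differences between strands, genes and chromosomes were taken within each library, so those tested were paired by library.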
